A study of Mus musculus with 2 samples.

Results

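The let-7 family, the set of microRNA genes whose mature products open with one shared seed, was read in microRNA sequencing of newborn mouse liver. Its members were taken by gene symbol: Mirlet7a-1, Mirlet7a-2, Mirlet7b, Mirlet7c-1, Mirlet7c-2, Mirlet7d, Mirlet7f-2, Mirlet7g, Mirlet7i and Mir98, which are 10 of the 1973 microRNA genes counted. Libraries were made from total RNA with inserts of fewer than 30 bases. There was 1 group, whole livers of strain B6NCrl mice at postnatal day 0, with no treatment or altered allele named in the labels. It had 2 replicates, 1 liver and 1 library each, labelled as pup 1 and pup 2 of the pregnancy numbered 1, and their sex was not collected. No second tissue, age or genotype was sampled, so what follows describes levels in this tissue and the spread between 2 pups that the labels place in one litter.

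MicroRNAs are cut from a hairpin into a duplex, and the 5′ arm (5p) of let-7 hairpins is the strand that is normally kept. Bases 2 to 8, the seed, pair with messenger RNAs and lower their output. Known let-7 targets include Hmga2, the Igf2bp genes and Lin28a and Lin28b, and let-7 is known for its rise as embryonic tissues mature. The Lin28 proteins in turn bind the loop of let-7 precursors and block their processing, which keeps the family low in stem cells and early embryos.

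Replicate 1 gave 3422622 counts on the strand of a microRNA gene and replicate 2 gave 4538427. Levels are in CPM, the counts of a gene per 1000000 of these totals. A read covers the whole mature microRNA, so levels of different genes were not divided by length. Where a gene had 0 counts, its level could still reach 0.877 CPM in the first library and 0.661 CPM in the second. All intervals are exact 95% binomial (Clopper-Pearson) intervals that cover counting error only. Reads that mapped to several loci, 25.2% and 24.7% of all reads, were on no gene. The liver label was checked on hepatocyte microRNAs: Mir122, Mir192 and Mir194-2 summed to 354080 and 366126 CPM. The listed muscle genes summed to 154 and 1036 CPM and the neural genes to 102 and 111 CPM. Both sums lay below the hepatocyte sum but not at 0, and Mir206 of the muscle list alone reached 1004 CPM in replicate 2. Mir9-1 of the neural list had no entry, and listed genes with several copies can lose reads to several loci. These sums can thus lie too low.

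The mature 5p sequences are shown first, because how they differ bears on which gene a read can be given to. They come from RefSeq (GRCm38.p6), with the seed in capitals.
let-7a-5p (Mirlet7a-1, Mirlet7a-2): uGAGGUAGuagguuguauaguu
let-7b-5p (Mirlet7b): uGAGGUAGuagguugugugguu
let-7c-5p (Mirlet7c-1, Mirlet7c-2): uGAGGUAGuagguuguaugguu
let-7d-5p (Mirlet7d): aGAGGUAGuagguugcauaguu
let-7e-5p (Mirlet7e): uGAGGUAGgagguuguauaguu
let-7f-5p (Mirlet7f-1, Mirlet7f-2): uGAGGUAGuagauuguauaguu
let-7g-5p (Mirlet7g): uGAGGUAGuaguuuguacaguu
let-7i-5p (Mirlet7i): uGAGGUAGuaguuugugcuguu
miR-98-5p (Mir98): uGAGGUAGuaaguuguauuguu

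All 10 members have the same seed and a 5p product of 22 bases, but the 10 genes encode only 8 different 5p sequences. Against let-7a-5p, counting from 1 at the 5′ end, let-7c-5p has 1 change (A19G), let-7f-5p has 1 (G12A) and let-7b-5p has 2 (A17G, A19G). The changes are G12U and U18C in let-7g-5p, U1A and U16C in let-7d-5p, and G11A and A19U in miR-98-5p. The most distant is let-7i-5p, with 4 changes (G12U, A17G, U18C, A19U). In 2202 hairpins of the GENCODE annotation, searched on both strands, the 5p sequences of Mirlet7b, Mirlet7d, Mirlet7g, Mirlet7i and Mir98 occurred at their own locus alone. Those of the other 5 members recurred in a second let-7 hairpin. The RefSeq table held 2 further mature sequences with this seed outside the let-7 genes named here, let-7k (gene Mir7k) and miR-1961 (Mir1961), and both genes had 0 counts in both libraries.

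Members with a 5p sequence of their own made up nearly all counts of the family. Mirlet7g stood at 41444 CPM in replicate 1 and 41129 CPM in replicate 2, a mean of 41287 ± 223 CPM (SD, n = 2), the third highest of all microRNA genes in each pup. The gene (ENSMUSG00000065440.1, chr9:106178840-106178927, plus strand, mm10) lies in an intron of Wdr82, which encodes a subunit of histone methyltransferase complexes. The pups were nearly equal for it, with a coefficient of variation of 0.540%. Mirlet7i (ENSMUSG00000065406.2, chr10:122985640-122985724, minus strand) followed at 14473 and 16583 CPM, a mean of 15528 ± 1492 CPM. It overlaps an exon of 1 of 2 transcripts of the noncoding gene D630033A02Rik and an intron of the other. Replicate 2 was the higher pup here, and the coefficient of variation was 9.61%.

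Mirlet7d (ENSMUSG00000065453.1, chr13:48536012-48536114, minus strand), in an exon of the noncoding gene 6720427I07Rik, had 6368 and 6937 CPM. Mir98 (ENSMUSG00000065536.2, chrX:151913214-151913321, plus strand), in an intron of the ubiquitin ligase gene Huwe1, had 2933 and 3155 CPM. For both genes replicate 2 was slightly above replicate 1. Mirlet7b (ENSMUSG00000065564.1, chr15:85707319-85707403, plus strand), in an exon of the noncoding gene Lncppara, had 947 and 1101 CPM, the lowest level among these 5 members. In sum the 5 members held 6.62% of the microRNA counts in replicate 1 (interval 6.59 to 6.64) and 6.89% in replicate 2 (6.87 to 6.91), a mean of 6.75% ± 0.194.

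**Figure D1:**
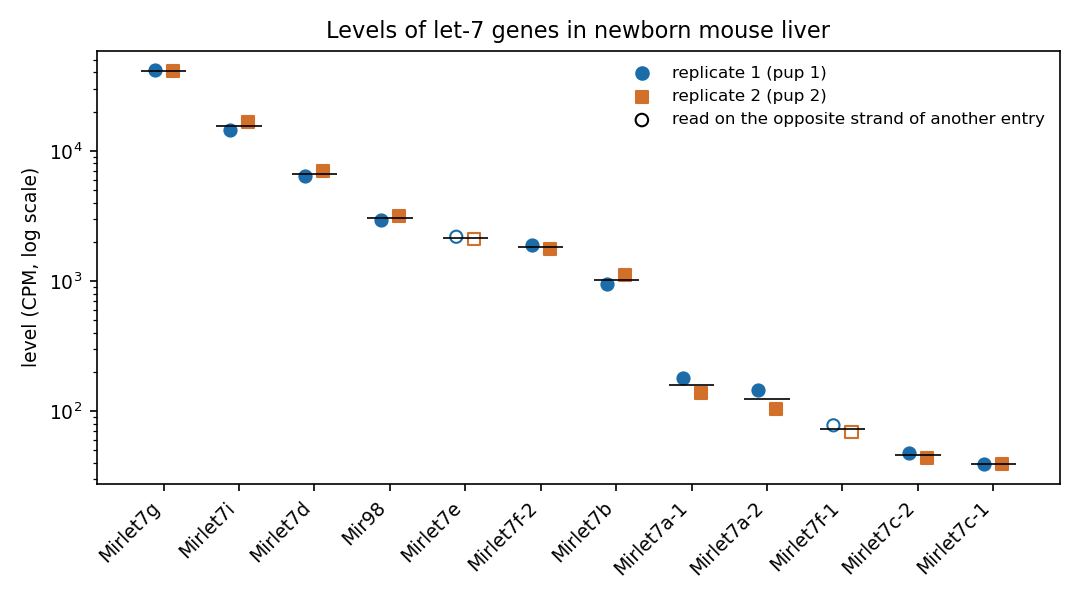
Level in CPM (log axis) of the 10 members and of Mirlet7e and Mirlet7f-1, ordered by mean; circles are replicate 1, squares replicate 2, horizontal lines the mean, and open symbols are reads taken from the opposite strand of another entry. Mirlet7g leads at 41287 CPM and Mirlet7c-1 is lowest at 39.3 CPM, and the pups lie close together compared with the gaps between most genes.

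The members that share a 5p sequence with another gene were the Mirlet7a, Mirlet7c and Mirlet7f copies. The stretches below run from the first base of the 5p product to 6 bases past its end, and the capital marks the first base at which the copies part. They show how much longer than the 22-base product a read must be before it belongs to 1 copy.
Mirlet7a-1: ugagguaguagguuguauaguuuUaggg
Mirlet7a-2: ugagguaguagguuguauaguuuAgagu
Mirlet7c-1: ugagguaguagguuguaugguuuAgagu
Mirlet7c-2: ugagguaguagguuguaugguuuUgggc
Mirlet7f-1: ugagguaguagauuguauaguuGugggg
Mirlet7f-2: ugagguaguagauuguauaguuUuaggg

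The Mirlet7f copies part at position 23, 1 base past the product (Mirlet7f-1 to Mirlet7f-2, G23U). The Mirlet7a copies (Mirlet7a-1 to Mirlet7a-2, U24A) and the Mirlet7c copies (Mirlet7c-1 to Mirlet7c-2, A24U) part 2 bases past it. The 3′ arms (3p) add a second overlap: let-7a-1-3p and let-7c-2-3p are the same 22 bases, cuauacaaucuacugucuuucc, so at full length neither arm of Mirlet7a-1 or of Mirlet7c-2 occurs at 1 locus only. The 3p sequences of the other 8 members occurred at their own locus alone. The longest stretch in common with another hairpin was 26 bases, between Mirlet7a-1 and Mirlet7c-2. It was 23 bases between the Mirlet7a copies and between the Mirlet7c copies, and 22 between the Mirlet7f copies. Mirlet7g and Mirlet7i had 19 bases in common, and Mirlet7b had 19 with Mirlet7c-2.

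Mirlet7f-2 (ENSMUSG00000065602.1, chrX:151912346-151912428, plus strand), in an intron of Huwe1 beside Mir98, had 1881 and 1762 CPM, a mean of 1821.5 ± 83.7 CPM. It was the one member with a shared 5p sequence that lay above a member without, Mirlet7b. A read of let-7f-5p with an added U at its 3′ end matches the Mirlet7f-2 hairpin and not that of Mirlet7f-1, so a U copied from this gene and a U added to the product of either gene cannot be told apart in these counts.

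Mirlet7a-1 (ENSMUSG00000065421.2, chr13:48538179-48538272, minus strand), in the same noncoding transcript as Mirlet7d, had 180 CPM in replicate 1 (616 counts) and 138 CPM in replicate 2 (625 counts). Mirlet7a-2 (ENSMUSG00000092770.1, chr9:41536716-41536811, plus strand), in introns of 3110039I08Rik and Gm49317, had 144 and 104 CPM from 493 and 472 counts. Replicate 1 was the higher pup for both copies of let-7a. Mirlet7c-2 (ENSMUSG00000065608.1, chr15:85706603-85706697, plus strand), in exons of Lncppara, had 47.9 and 43.6 CPM. Mirlet7c-1 (ENSMUSG00000065557.2, chr16:77599657-77599750, plus strand), in introns of the noncoding gene Mir99ahg, had 39.2 and 39.4 CPM. These 4 genes were the lowest of the family, and the 5 members with a shared 5p sequence, Mirlet7f-2 included, came to 3.35% and 2.94% of the family's counts. How much let-7a, let-7c and let-7f the livers held cannot be read from these counts, and the part of shared sequence in the low levels was not tested.

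Mirlet7e and Mirlet7f-1 have no entry of their own in the deposited table, but each lies under a predicted gene on the other strand, so reads counted there on the opposite strand fall on the let-7 gene. Mirlet7e (chr17:17830352-17830444, plus strand, in an intron of Spaca6) was covered this way by 7480 and 9592 reads at Gm25927, or 2185 and 2114 CPM. Its 5p sequence (U9G against let-7a-5p) occurred at this locus only. Mirlet7f-1 (chr13:48537829-48537917, minus strand, in an exon of 6720427I07Rik, as Mirlet7a-1 and Mirlet7d are) was covered by 266 and 313 reads at Gm24111, or 77.7 and 69.0 CPM. On their own strands the predicted genes had 0 reads in both libraries, apart from 1 read at Gm24111 in replicate 2. Mirlet7e thus stood between Mir98 and Mirlet7f-2, and Mirlet7f-1 between Mirlet7a-2 and Mirlet7c-2.

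All 10 members had at least 10 counts in both libraries, as did 15.8% of all microRNA genes in the table. Their order by level was Mirlet7g, Mirlet7i, Mirlet7d, Mir98, Mirlet7f-2, Mirlet7b, Mirlet7a-1, Mirlet7a-2, Mirlet7c-2 and Mirlet7c-1, and it was the same in each pup. Of the 9 pairs of neighbours, 8 were separated, meaning that the pups of the upper gene lay wholly above those of the lower and the means differed by more than the sum of the SDs. The exception was Mirlet7a-1 and Mirlet7a-2, whose values overlapped across the pups. Over all 45 pairs of members 44 were separated. Counting error alone leaves Mirlet7c-2 and Mirlet7c-1 unresolved, with a ratio of 1.22 (interval 0.968 to 1.55) in replicate 1 and 1.11 (0.899 to 1.36) in replicate 2. With 2 pups the smallest two-sided p of an exact sign-flip test is 0.5, so the order rests on these gaps and not on a p-value.

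The counts of the family were steeply graded. The Mirlet7g level was 2.67 ± 0.271 times that of Mirlet7i, Mirlet7i was 2.33 ± 0.0832 times Mirlet7d, and Mirlet7d was 2.18 ± 0.0196 times Mir98. From Mirlet7g to Mirlet7c-1 the means spanned 1051-fold. Mirlet7g, Mirlet7i and Mirlet7d alone held 6.23% and 6.46% of all microRNA counts. The 10 members together held 6.85% in replicate 1 (interval 6.82 to 6.87) and 7.10% in replicate 2 (7.08 to 7.12), and with Mirlet7e and Mirlet7f-1 the reads came to 7.07% and 7.32% of the same totals. Of the counts of the 10 members Mirlet7i took 21.1% in replicate 1 and 23.4% in replicate 2, while Mirlet7g took 60.5% and 57.9%.

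The reads at several loci set wide limits on the true share. If none of them came from let-7, the members would hold 4.74% and 4.89% of gene-strand counts and reads at several loci combined. If every one did, they would hold 35.5% and 35.9%. In number these reads were 194 and 216 times the counts of the 5 members with a shared 5p sequence.

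**Figure D2:**
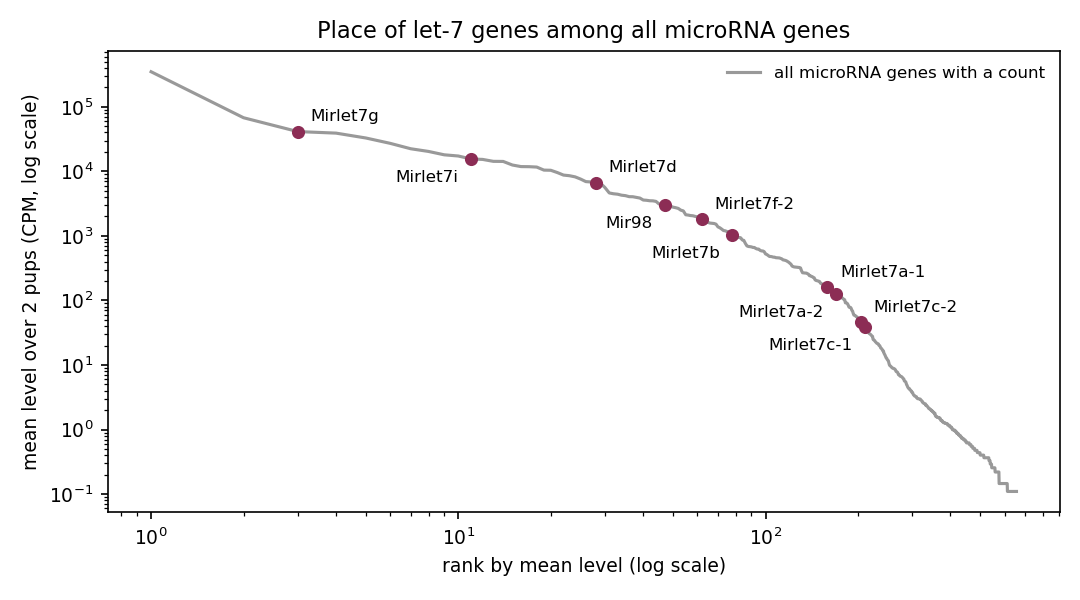
Mean level over the 2 pups (CPM, log axis) against rank (log axis) for all microRNA genes with a count (line), with the 10 members as points. The members run from rank 3 (Mirlet7g) to rank 211 (Mirlet7c-1).

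The genes nearest to the 3 highest members in the plane of the 2 pups' log2 CPM values were then listed, with the distance in log2 units over 2 libraries. Nearest to Mirlet7g were Mir26b (0.155) and Mir21a (0.506), nearest to Mirlet7i were Mir143 (0.193) and Mir322 (0.241), and nearest to Mirlet7d were Mir369 (0.0297) and Mir487b (0.114). With 2 libraries this likeness describes a level and 1 ratio only.

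The loop that joins the arms is where Lin28 proteins bind let-7 precursors, through GGAG near the 3p arm and, for the cold shock domain, a GAU-like element further 5′. The RNA between the arms is shown for let-7 genes with both, 1 or neither of these. The capitals mark GGAG and the first GAU or GAC before it, or the first GAU or GAC in a loop without GGAG. A later GAU in the Mirlet7b loop is left in lower case.
Mirlet7g: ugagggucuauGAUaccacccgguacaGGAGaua
Mirlet7i: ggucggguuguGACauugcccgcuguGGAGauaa
Mirlet7d: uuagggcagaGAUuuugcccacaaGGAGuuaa
Mirlet7f-1: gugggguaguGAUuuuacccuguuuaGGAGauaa
Mirlet7b: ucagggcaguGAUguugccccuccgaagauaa
Mirlet7f-2: uuagggucauaccccaucuuGGAGauaa
Mirlet7a-2: uagaguuacaucaagGGAGauaa
Mirlet7c-2: uugggcucugccccgcucugcgguaa

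GGAG was found in the loops of 7 of the 9 members searched, 3 or 4 bases before the 3p arm, and not in Mirlet7b or Mirlet7c-2. Of 42 other mouse hairpins with both arms annotated and a loop of the same range of lengths (23 to 34 bases), 11.9% held it. GAU or GAC was looked for before GGAG, or in the whole loop where GGAG was absent. It was found in 4 of the 9, namely Mirlet7b, Mirlet7d and Mirlet7g with GAU and Mirlet7i with GAC. Of the 42 other loops 40.5% held it, but only 5 of the 42 have GGAG. Most of them were thus searched whole, unlike most let-7 loops, so these shares are not a like comparison. Only the strand of the RNA was searched. Among the 9 searched, each of these 4 has a 5p sequence of its own and the other 5 share theirs, so the element and the uniqueness of the 5p sequence cannot be told apart in the levels of these members. Mirlet7e, with GGAG and GAC, and Mirlet7f-1, with GGAG and GAU, were read at 2149 ± 50.9 and 73.3 ± 6.19 CPM. A match is a run of letters, and binding was not measured.

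Several members sit in shared transcripts, so levels were compared within each. On the X chromosome, 785 bases apart in Huwe1, Mir98 had 1.56 times the counts of Mirlet7f-2 in replicate 1 (interval 1.51 to 1.61) and 1.79 times in replicate 2 (1.74 to 1.84). This was the smallest ratio among the 3 units that hold several members. In Lncppara, 621 bases apart, Mirlet7b had 19.8 times the counts of Mirlet7c-2 in replicate 1 and 25.2 times in replicate 2. On chromosome 13, Mirlet7d had 35.4 and 50.4 times the counts of Mirlet7a-1 and 81.9 and 101 times the reads at Mirlet7f-1. In all 3 units the gene with a 5p sequence of its own was the higher one in each pup, and the part of reads at several loci in these ratios was not tested.

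The other hairpins linked to let-7 genes belong to the Mir99, Mir100 and Mir125 families, which have other seeds. In Mir99ahg, Mir99a stood at 17120 and 17415 CPM, 437 and 442 times Mirlet7c-1, which lies 656 bases away. Both mature arms of Mir99a occurred at its own locus only. Mir125b-2 in the same host had 4.06 and 4.16 times the counts of Mirlet7c-1. On chromosome 9, Mir100 had 4.02 times the counts of Mirlet7a-2 in replicate 1 and 6.45 times in replicate 2, while Mirlet7a-2 had 4.61 and 2.25 times those of Mir125b-1. The miR-125b-5p sequence occurs in both Mir125b hairpins, so their counts carry the same limit as the let-7 copies. The let-7 gene was thus the middle of 3 levels there, and its place moved down relative to both neighbours in replicate 2. In Spaca6, Mirlet7e lay 94 bases from Mir99b and the ratio was steady: Mir99b had 3.47 and 3.60 times the reads at Mirlet7e. Mir125a had 0.806 and 0.787 times as many. The mean ratios to Mirlet7e were 3.53 ± 0.0910 for Mir99b and 0.796 ± 0.0132 for Mir125a, against 439 ± 3.02 for Mir99a over Mirlet7c-1. Counting error on the last ratio is wider than its SD, with intervals of 369 to 522 in replicate 1 and 381 to 514 in replicate 2. The 5p sequence of Mirlet7c-1 also recurs in Mirlet7c-2, while that of Mirlet7e occurred at its own locus only. The part of shared sequence in this contrast was not tested.

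**Figure D3:**
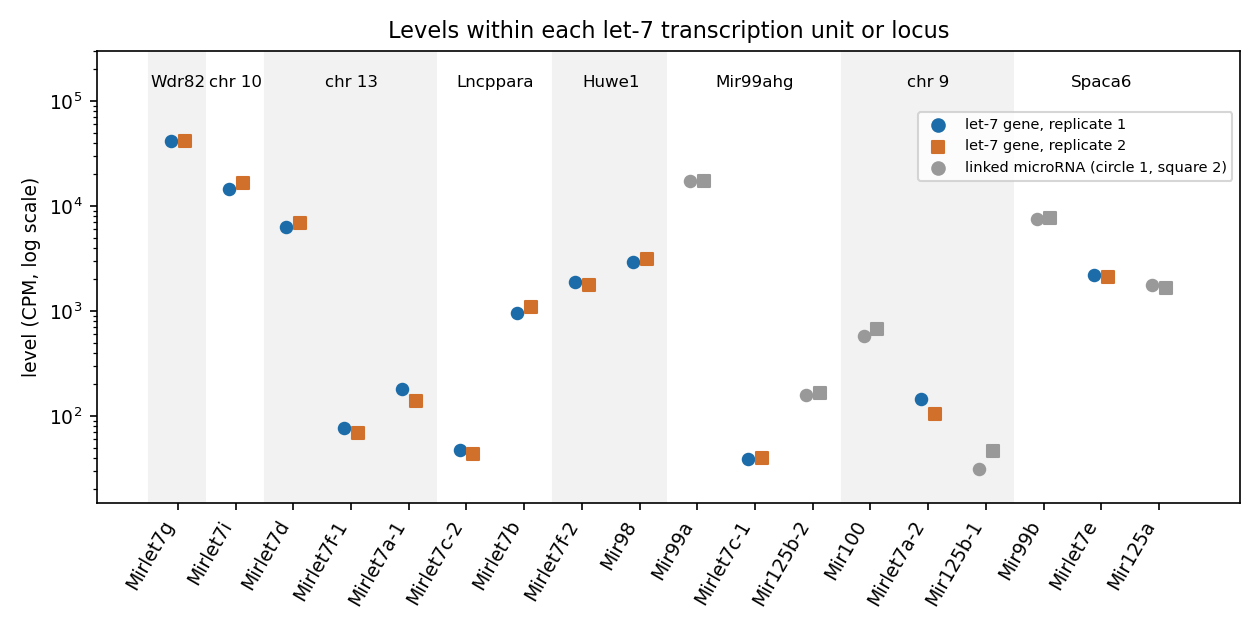
Level in CPM (log axis) of each let-7 gene and its linked microRNAs, grouped by host gene or chromosome; circles are replicate 1 and squares replicate 2, coloured for let-7 genes and grey for linked microRNAs, and Mirlet7e and Mirlet7f-1 are opposite-strand reads. Mir99a lies at 17120 and 17415 CPM against 39.2 and 39.4 CPM for Mirlet7c-1, whereas Mir98 and Mirlet7f-2 lie close together.

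The pups were compared gene by gene with a two-sided exact binomial test on the counts, with Benjamini-Hochberg adjustment at 0.05 over all 390 genes that had at least 10 counts. This test compares the reads of 2 libraries and not conditions, and each pup is 1 library, so the differences have no replicate check. By it 7 of the 10 members differed, against 30.3% of all genes tested and 48.9% of the 221 genes that reached 100 counts in each pup, as every member did. Mirlet7i, Mirlet7d, Mir98 and Mirlet7b were higher in replicate 2 (15.9% of all genes tested), and Mirlet7a-1, Mirlet7a-2 and Mirlet7f-2 were lower (14.4%). The 4 that were higher all have a 5p sequence of their own and the 3 that were lower all share theirs, and the reads placed at several loci made up 25.2% of the first library and 24.7% of the second. The part of this shift in the differences was not tested.

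The differences were small. Mirlet7b was 1.16-fold higher in replicate 2 (log2 ratio 0.22, interval 0.15 to 0.28, adjusted p = 1.63e-10 by the exact binomial test) and Mirlet7i 1.15-fold higher (0.20, 0.18 to 0.21). Mirlet7d was 1.09-fold and Mir98 1.08-fold higher. In the other direction Mirlet7a-2 was 1.38-fold higher in replicate 1 (log2 ratio -0.47, interval -0.66 to -0.28, adjusted p = 2.89e-06 by the exact binomial test), Mirlet7a-1 1.31-fold and Mirlet7f-2 1.07-fold. The intervals of Mirlet7c-1 (0.01, -0.32 to 0.34) and Mirlet7c-2 (-0.14, -0.44 to 0.17) spanned both signs. Their counts were too few to resolve changes as small as those of Mirlet7d, Mir98 and Mirlet7f-2. The log2 ratio of Mirlet7a-2 lay outside both intervals. For Mirlet7g, with 141848 and 186661 counts, the log2 ratio was -0.01 (-0.021 to -0.0010, adjusted p = 0.0904 by the exact binomial test), and its sign and call changed with the library total, from lower to 0.017 higher without Mir122 in the total.

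The median log2 ratio of the members was 0.00 and that of all genes tested was also 0.00. The median size was 0.13 for the members and 0.12 for the 221 genes that reached 100 counts in each pup. With the difference between the pups itself taken as noise, using a common dispersion in edgeR's negative binomial exact test, 0 of the 10 members were called, and 0 had an unadjusted p below 0.05, against 12 of the 390 genes. That test called 0.513% of genes. The opposite-strand reads at Mirlet7e (log2 ratio -0.05, -0.092 to -0.0045) and Mirlet7f-1 (-0.17, -0.41 to 0.07) were outside the tested genes. Of the 6 linked hairpins, 3 were higher in replicate 2 (Mir99a, Mir100 and Mir125b-1) and 1 was lower (Mir125a) by the exact binomial test, against the 30.3% of all genes tested and the 48.9% of deeply counted genes given above.

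Summed levels in replicate 2 were 1.03 times those in replicate 1 for the 3 hepatocyte genes, 1.05 times for endothelial Mir126a, 1.05 times for 4 mesenchymal genes, 0.970 times for 3 erythroid genes, 0.972 times for 5 epithelial genes, 1.10 times for the 3 neural genes in the table and 0.912 times for the 4 leukocyte genes in the table. The muscle sum was 6.74 times as high in replicate 2, led by Mir206 at 136 and 1004 CPM. Mir1a-1, Mir133a-1 and the neural gene Mir124a-1 had 0 counts in both libraries, but each belongs to a microRNA with several gene copies, and reads at several loci were on no gene. Sums also joined genes that went opposite ways. Most of the hepatocyte sum was Mir122, at 342309 and 354939 CPM. In the same list Mir192 was at 8829 and 8662 CPM and Mir194-2 at 2941 and 2524 CPM, both lower in replicate 2. Mir144 was at 1374 and 1786 CPM and Mir451a, of the same erythroid list, at 3877 and 3310 CPM. In the leukocyte list Mir150 was at 40.9 and 55.3 CPM and Mir223 at 8567 and 7846 CPM. On the log2 scale Mir144 differed by 0.38 and Mir150 by 0.44, more than any member that was higher in replicate 2. The part of these shifts in the let-7 differences was not tested, and in whole liver fewer cells of a type and less RNA per cell cannot be told apart.

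**Figure D4:**
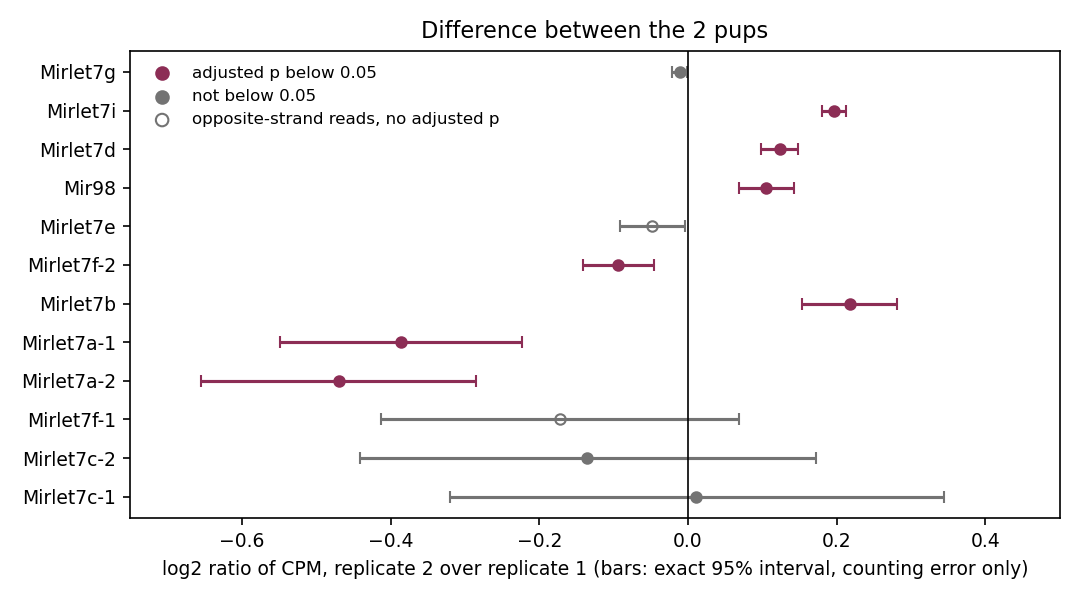
Log2 ratio of CPM, replicate 2 over replicate 1, for the 10 members and for opposite-strand reads at Mirlet7e and Mirlet7f-1 (open symbols); bars are exact 95% intervals for counting error, and plum marks an adjusted p below 0.05 by the exact binomial test. Mirlet7b lies at 0.22 and Mirlet7a-2 at -0.47, while Mirlet7g is close to 0.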

How the data were processed

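The authors deposited 1 file of raw counts for each of 2 libraries, made on mm10 with GENCODE M4, per the notes deposited beside them. How reads were trimmed, aligned and counted is not given in the sources used here. The 3 unnamed count columns were read from the values as unstranded, gene-strand and opposite-strand counts of uniquely mapped reads; the gene strand was used. Reads not on the strand of an entry, 8.87% and 9.92% of uniquely mapped reads, stayed out of library totals. They include the opposite-strand reads, such as those at Mirlet7e and Mirlet7f-1. Each entry spans a hairpin, so the arms are not told apart, and no correction was made for ligation bias. Symbols, places and hairpins came from GENCODE M21 (all 12 let-7 hairpins are identical in RefSeq), and mature sequences and printed stretches from RefSeq GRCm38.p6. The 10 members all matched. In the search for copies, loci that overlap the hairpin itself were left out. The search took exact matches in annotated hairpins only, so near matches and the rest of the genome were not covered. The loop of 1 member is not reported here.

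CPM, exact intervals and the exact binomial test used Python 3.11.15 and scipy 1.17.1; edgeR 4.0.16 and DESeq2 1.42.0 gave the alternatives. The binomial test was tried on simulated counts with counting error only, which is the error it assumes, so spread between pups was not covered. Of 50 genes given a 1.25-fold change, 32 had enough counts to be tested and 9 were called, which is 18% of the 50. Of 50 given a 4-fold change, 34 were tested and 28 were called, which is 56% of the 50. Among 276 tested genes without a change it called 1.45%. The changed genes were drawn from outside the 50 genes of highest mean level. Mirlet7g, Mirlet7i, Mirlet7d and Mir98, at ranks 3, 11, 28 and 47, lie within those 50, so changes at their depth were not tried. Named genes were the members, Mirlet7e and Mirlet7f-1, the linked hairpins, other genes with the seed and the 2 nearest genes to each of the 3 highest members. The members and lists were chosen with earlier results of these data known.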

Additional observations from a re-analysis of the deposited data

Results flagged for a closer look

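Reads in the column for the opposite strand, which lies outside the gene-strand counts behind the levels and tests of the 10 members, lay far above the limit that a count of 0 allows at the places of the let-7 genes without an entry. At Mirlet7e there were 7480 in replicate 1 and 9592 in replicate 2, and at Mirlet7f-1 there were 266 and 313.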

How the results depend on the processing

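The let-7 share of 6.97% became 6.65% with counts taken without regard to strand, 6.32% with all uniquely mapped reads as the total and 10.7% with Mir122 left out of the total, and it ranged from 6.85% to 7.10% with each pup left out. TMM and DESeq2 size factors left it and all 10 member levels within 1 SD. These factors only shift the libraries against each other, so a mean over the pups could hardly move under them. The number of members that differed between the pups was 7 or 8 under every setting of the exact binomial test, and 0 with the edgeR negative binomial test, which called 2 of 390 genes where the binomial test called 118. Mirlet7g was the member that joined the calls, as lower with DESeq2 size factors or all uniquely mapped reads, and its log2 ratio turned to 0.017, a call as higher, without Mir122. That of Mirlet7c-1 turned to -0.0061 with all uniquely mapped reads. Ratios within transcripts moved by less than 1 SD without regard to strand. Almost no reads lay on the other strand of these genes, so this setting could hardly move the ratios. With a shared stretch of 18 bases 8 members, not 5, shared sequence with another locus, and with 22 bases 5 did. No paired analysis was possible because there is 1 group. Depth limits Mirlet7c-1 and Mirlet7c-2 most, and reads at several loci limit the copies of let-7a, let-7c and let-7f.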
